A study of Mus musculus with 8 samples.

Results

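ATF4 is the central transcription factor of the integrated stress response, the program by which a cell slows translation and adapts to a shortage of amino acids, misfolded protein or failing mitochondria. In this program a stress-sensing kinase phosphorylates the translation initiation factor eIF2, which lowers protein synthesis in general but favors translation of the Atf4 mRNA, and ATF4 protein then switches on genes of amino acid synthesis and transport, of redox balance and of feedback. Mitochondrial dysfunction is among the known triggers in cultured cells, so these genes are of interest wherever mitochondria are perturbed. The 10 genes described here are Atf4 itself and 9 genes known as its targets, chosen by symbol: Atf5, Ddit3, Ddit4, Asns, Trib3, Chac1, Sesn2, Psat1 and Phgdh. They are 10 of 55401 genes in each table, and all 10 were among the 12122 genes abundant enough for testing.

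AML12 cells, a line of mouse hepatocytes that carry a transgene for transforming growth factor alpha, were kept for 1 h under Opti-ELF-WMF (4 dishes) or without it (4 control dishes). Opti-ELF-WMF is a pulsed magnetic field with a peak of 100 mG, a pulse width of 4 ms and a pulse frequency that climbs from 1 to 8 Hz. The cells were grown with serum, dexamethasone and insulin-transferrin-selenite. The authors state that control and exposed cells were prepared at the same time from a single batch. Whether all 4 replicates shared that batch is not given. Control dishes stood in a second incubator of the same model with the stimulator off, so that field and incubator cannot be told apart. Expression is given in TPM, a unit in which reads are counted per transcript length and brought to 1 common sum in each dish. TPM keeps no sequencing depth, so the counting error of each value is unknown.

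The hepatocyte markers Hnf4a (180 to 218 TPM), Ttr (333 to 384 TPM), Krt8 (2206 to 2431 TPM) and Krt18 (1825 to 2071 TPM) were abundant in every dish, whereas Alb (46.1 to 58.2 TPM), Cebpa (7.35 to 11.1 TPM), Apoa1 (3.12 to 5.29 TPM) and Afp (0.48 to 1.33 TPM) were lower. Of the 4 cholangiocyte markers, Krt7, Krt19 and Sox9 were expressed as well (summed level of the list 1203 to 1291 TPM in control and 1218 to 1339 TPM in exposed dishes). Macrophage, endothelial and fibroblast lists were near 0, with summed levels of at most 2.31, 0.09 and 1.52 TPM, and Adgre1, Clec4f, Cdh5 and Lrat were listed at 0 in every dish. The summed level of the 8 hepatocyte markers was 4615 to 4834 TPM in control and 4902 to 5151 TPM in exposed dishes, and its part in the results below was not tested. This sum is mostly Krt8 (2206 to 2280 TPM in control and 2305 to 2431 TPM in exposed dishes) and Krt18 (1825 to 1963 and 1992 to 2071 TPM). Alb (52.6 to 58.2 and 46.1 to 53.0 TPM), Cebpa (8.24 to 11.1 and 7.35 to 8.73 TPM) and Apoa1 (4.01 to 5.29 and 3.12 to 4.76 TPM) had lower ranges in exposed dishes, with overlap. So did Afp (0.76 to 1.33 and 0.48 to 1.24 TPM). Hnf4a had 180 to 199 and 182 to 218 TPM, and Ttr 333 to 384 and 338 to 366 TPM. Genes of the mitochondrial genome held 8.69% to 9.42% of TPM in control dishes and 5.99% to 7.69% in exposed dishes, and their nuclear copies held 4.94% to 5.33% and 3.61% to 4.46%. Since every dish is scaled to the same total, this difference alone lifts the other genes of the exposed dishes, and results are therefore also given after rescaling without these genes.

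AML12 cells expressed all 10 genes of the response in every dish, control dishes included. Psat1, which makes phosphoserine in the serine pathway, had the highest level at 476 ± 13.7 TPM (SD over 8 dishes), followed by Phgdh, the entry enzyme of that pathway, at 420.1 ± 28.0 TPM and Atf4 at 306 ± 7.34 TPM. These 3 genes exceeded at least 96.2% of the tested genes. Asns, which makes asparagine, had 144 ± 3.95 TPM and Atf5, a related bZIP transcription factor, 139 ± 5.11 TPM. Ddit4 (44.6 ± 2.02 TPM), Ddit3 (35.5 ± 2.08 TPM), Sesn2 (23.1 ± 0.67 TPM), Trib3 (22.1 ± 1.41 TPM) and Chac1 (13.8 ± 0.68 TPM) followed, with Chac1 above 37.6% of the tested genes. The ranges of neighbors in this order overlapped for Asns with Atf5 and for Sesn2 with Trib3, each in the stated order in 6 of 8 dishes, and these pairs did not differ beyond their spread. The other 7 neighbors were in the same order in all 8 dishes with no overlap.

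**Figure D1:**
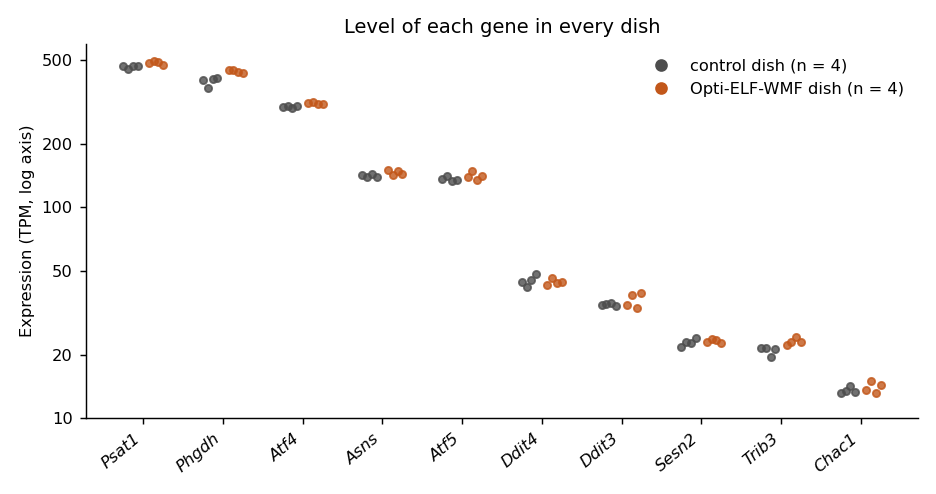
Expression of the 10 genes in TPM (log axis) in every dish, with control dishes in grey and Opti-ELF-WMF dishes in orange (n = 4 each), ordered by mean level. Psat1 stands at 454 to 497 TPM and Chac1 at 13.2 to 15.1 TPM, and this span is far larger than the difference between conditions of any gene. The neighbors Asns and Atf5 overlap, as do Sesn2 and Trib3.

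After 1 h of Opti-ELF-WMF none of the 10 genes passed the test, and any difference was small. By limma on log2(TPM + 1) with Benjamini-Hochberg adjustment over all 12122 tested genes, 0 of the 10 genes reached an adjusted p-value below 0.05, as did 0.0% of all tested genes (1894 of the 12122, or 15.6%, were below 0.05 before adjustment). With an unadjusted p-value under 0.05 there were 4 genes, Atf4, Trib3, Psat1 and Phgdh, all with higher values in exposed dishes, and 12.0% of all tested genes were higher by this criterion. In the same 4 genes every exposed dish lay above every control dish, as it did for 8.01% of all tested genes. No member was lower by either criterion, against 3.65% and 1.86% of all tested genes. Of the 10 genes, 9 had a positive log2 difference, which 63.7% of all tested genes also had. The median log2 difference was 0.05 over the 10 genes and 0.03 over all tested genes. The 95% confidence intervals of limma allowed at most a 1.18-fold higher and at the lowest a 0.921-fold level for any of the 10 genes, and 6 of the 10 intervals included no difference.

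The scaling bore on these counts. When TPM was recomputed after leaving out mitochondrial genes and the nuclear copies, the median log2 difference was 0.0073 over the 10 genes and -0.02 over all tested genes, and 1 gene, Phgdh, kept an unadjusted p-value under 0.05, where 3.31% of all tested genes were higher and 7.79% lower by this criterion. After median-of-ratios scaling, 2 genes (Trib3 and Phgdh) did, with 5.55% of all tested genes higher and 6.23% lower. The log2 difference was above 0 for 8 of the 10 genes and 39.4% of all tested genes after rescaling, and for 8 of the 10 genes and 49.2% of all tested genes after median-of-ratios scaling. Phgdh and Trib3 had the 2 largest differences of the 10 genes under these scalings, as on the deposited values.

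**Figure D2:**
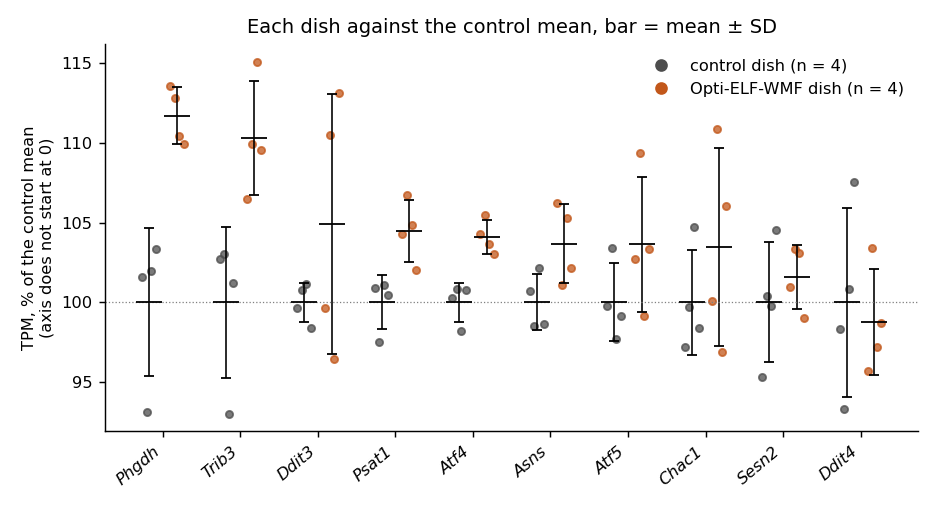
TPM of each dish as a percentage of the control mean of its gene (vertical axis, not starting at 0), for control (grey) and Opti-ELF-WMF dishes (orange), n = 4 each, with black bars for the mean ± SD. Exposed dishes lie clear of control dishes for Phgdh, Trib3, Psat1 and Atf4, and overlap with them for the other 6 genes.

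Atf4 lies on chromosome 15 from 80255184 to 80257541 on the plus strand (GRCm38, GENCODE M21). Its TPM was 301, 303, 295 and 303 in control dishes 1 to 4 and 313, 317, 311 and 309 in exposed dishes 1 to 4. The 4 exposed dishes were all above the 4 control dishes, but the mean moved only from 300.3 ± 3.72 to 313 ± 3.17 TPM (SD, n = 4). The log2 difference was 0.06 (standard error 0.02, 95% interval 0.01 to 0.10, adjusted p = 0.217, limma), and 31.9% of all tested genes had a larger one. After rescaling it was 0.01 (adjusted p = 0.877, limma). Since ATF4 is controlled mainly through translation of its mRNA, the level of this mRNA is not a measure of ATF4 protein, which was not measured here.

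Atf5 (chromosome 7, 44812256 to 44816658, minus strand) encodes a transcription factor whose translation is regulated much like that of Atf4 and which takes part in the mitochondrial unfolded protein response. Control dishes 1 to 4 had 136, 141, 133 and 135 TPM, and exposed dishes 1 to 4 had 140, 149, 135 and 141 TPM. Exposed dish 2 was the only dish above every control dish, and the conditions overlapped. This gave a log2 difference of 0.05 (standard error 0.03, adjusted p = 0.513, limma). Exons of Atf5 overlap those of Nup62 and Il4i1 on the opposite strand. The libraries were stranded, but whether strand was used in counting is not given in the sources used here, so the Atf5 value is uncertain to this extent. Nup62 had a mean of 89.9 TPM in control and 99.4 TPM in exposed dishes.

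Ddit3 (chromosome 10, 127290774 to 127296288, plus strand) encodes CHOP, the factor that turns a prolonged stress response toward cell death. Its control dishes lay close together at 34.5, 34.9, 35.0 and 34.1 TPM, whereas exposed dishes 1 to 4 had 34.5, 38.3, 33.4 and 39.2 TPM. Exposed dishes 2 and 4 were above all control dishes, and dish 3 was below all of them. The standard deviation was 0.429 TPM in control and 2.82 TPM in exposed dishes. The log2 difference of 0.06 (standard error 0.05, adjusted p = 0.596, limma) was within this spread. A second identifier with the symbol Ddit3, a short gene model inside the first, was listed at 0 in every dish and was not tested, and exons of Mars1 (73.8 TPM in control and 77.4 TPM in exposed dishes) and Gm4189 overlap those of Ddit3 on the opposite strand.

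Trib3, Ddit4, Sesn2 and Chac1 act as brakes or effectors downstream of ATF4. Trib3 (chromosome 2, 152337422 to 152344032, minus strand) encodes a pseudokinase that binds ATF4 and CHOP and restrains the response. Its TPM was 21.6, 21.6, 19.5 and 21.2 in control dishes 1 to 4 and 22.4, 23.1, 24.2 and 23.0 in exposed dishes 1 to 4. Every exposed dish was above every control dish, with a mean of 20.99 ± 0.993 TPM in control and 23.1 ± 0.75 TPM in exposed dishes (SD, n = 4). The log2 difference was 0.14 (standard error 0.04, 95% interval 0.04 to 0.23, adjusted p = 0.19, limma), and 6.59% of all tested genes had a larger one. After rescaling it was 0.09 (adjusted p = 0.498, limma).

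Ddit4 and Sesn2, both inhibitors of the growth kinase complex mTORC1, differed by less than the spread between dishes. Ddit4 (chromosome 10, 59949669 to 59951834, minus strand) had 44.1, 41.9, 45.3 and 48.3 TPM in control dishes 1 to 4 and 43.0, 46.4, 43.6 and 44.3 TPM in exposed dishes 1 to 4. It was the 1 gene of the 10 with a negative log2 difference, -0.02 (standard error 0.05, 95% interval -0.12 to 0.09, adjusted p = 0.901, limma). Sesn2 (chromosome 4, 132492032 to 132510501, minus strand) had 21.8, 23.0, 22.8 and 23.9 TPM in control dishes and 23.1, 23.6, 23.6 and 22.7 TPM in exposed dishes. All exposed dishes of Sesn2 fell inside the range of the control dishes (log2 difference 0.02, standard error 0.04, adjusted p = 0.833, limma), and the sign turned to -0.02 after rescaling.

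Chac1 (chromosome 2, 119351229 to 119354381, plus strand), which encodes an enzyme that degrades glutathione, had 13.2, 13.5, 14.2 and 13.4 TPM in control dishes and 13.6, 15.1, 13.2 and 14.4 TPM in exposed dishes. As with Ddit3, exposed dishes 2 and 4 were above all control dishes and exposed dish 3 was below all of them. The log2 difference was 0.04 (standard error 0.05, 95% interval -0.07 to 0.16, adjusted p = 0.732, limma).

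The enzymes of amino acid synthesis included the gene with the largest difference. Phgdh, on chromosome 3 from 98313170 to 98339990 on the minus strand, commits the glycolytic intermediate 3-phosphoglycerate to serine synthesis. Its TPM was 403, 369, 405 and 410 in control dishes 1 to 4 and 451, 448, 438 and 436 in exposed dishes 1 to 4. All exposed dishes were above all control dishes, and control dish 2 lay below the other 3. The mean was 397 ± 18.5 TPM in control and 443 ± 7.12 TPM in exposed dishes (SD, n = 4), which is 11.7% higher. The log2 difference was 0.16 (standard error 0.03, 95% interval 0.08 to 0.24, adjusted p = 0.122, limma), and the gene ranked 82 of 12122 by p-value. The difference was 0.11 after rescaling (adjusted p = 0.281, limma) and 0.13 without control dish 2. Phgdh shares sequence with gene models on other chromosomes and with Gm5847 on its own chromosome. The one with the largest shared part, Gm7901, had 70.1% of its 31-base words in common with Phgdh transcripts and a mean of 1.99 TPM in control and 2.25 TPM in exposed dishes, against 397 and 443 TPM for Phgdh itself.

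Psat1, the next enzyme of the serine pathway (chromosome 19, 15904678 to 15947337, minus strand), had 470.1, 454, 471 and 468 TPM in control dishes and 486, 497, 488 and 475 TPM in exposed dishes. Exposed dishes were again all above control dishes, with a log2 difference of 0.06 (standard error 0.02, 95% interval 0.01 to 0.11, adjusted p = 0.226, limma) that became 0.02 after rescaling (adjusted p = 0.841, limma). Asns (chromosome 6, 7675169 to 7693254, minus strand) had 142, 139, 144 and 139 TPM in control dishes and 150.1, 143, 149 and 144 TPM in exposed dishes. Exposed dishes 1 and 3 were above all control dishes, and the conditions overlapped (log2 difference 0.05, standard error 0.03, adjusted p = 0.382, limma). The exact two-sided permutation test on TPM gave p = 0.0286 for Atf4, Trib3, Psat1 and Phgdh, the smallest value that 4 dishes against 4 allow, and p = 0.0857 or more for the other 6 genes. These values are not adjusted for the number of genes.

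**Figure D3:**
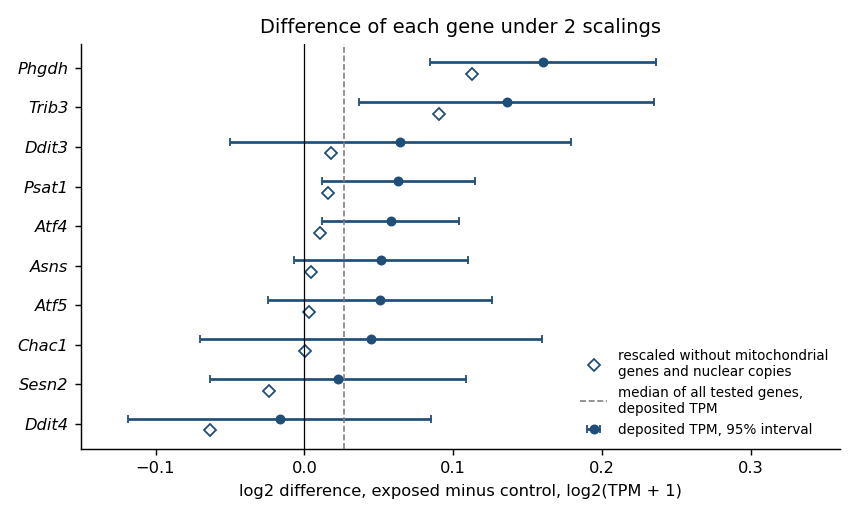
Log2 difference of each gene between Opti-ELF-WMF and control dishes (n = 4 each) on log2(TPM + 1). Filled points with bars are the deposited TPM with 95% confidence intervals of limma, open diamonds the values after rescaling without mitochondrial genes and nuclear copies, and the dashed line the median of all tested genes (0.03). Rescaling shifts all 10 genes to the left, and Phgdh and Trib3 stay farthest to the right, at 0.11 and 0.09.

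Within conditions, the 10 genes varied from dish to dish in no common direction. After subtracting the mean of each condition, Pearson's r over the 8 dishes was above 0 for 25 of the 45 pairs of genes, with a median of 0.05. Atf4 alone had a median r of 0.06 with all tested genes, which is no background for the 45 pairs. The highest value was that of Ddit3 with Chac1 (0.84), followed by Psat1 with Phgdh (0.75), and the lowest that of Atf5 with Asns (-0.75). With Atf4, the values ran from 0.69 for Atf5 to -0.56 for Asns. The tested genes most like Atf4 by this measure were Trnt1 (r = 0.996, Spearman's rho 1), Stmn1 (r = 0.971, Spearman's rho 0.929) and Mrps5 (r = 0.963, Spearman's rho 0.929), none of them a member. All values of a dish share its library and its scaling, and the last 3 genes were picked as the highest of all tested genes, so these values are descriptions.

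ATF4 acts on its targets through composite sites that join a recognition element of ATF factors with that of C/EBP factors. Promoter windows from RefSeq (GRCm38.p6), reaching from 250 bases before to 50 bases after each gene start, were available for all 10 genes, with a second start for Atf5 and Psat1. They were searched on both strands for TGATGNAA, the usual form of the composite site, and for TGNNGCAA, a looser form that overlaps it in TGATGCAA. The following stretches of 30 bases are shown because they hold every strict match among the 10 genes. For Trib3 and Psat1 the looser match is shown as well, and matched bases are in capitals. The looser matches in Atf5 and Sesn2, and further ones in Chac1, are not printed.

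Asns, chr6:7693214-7693243, minus strand: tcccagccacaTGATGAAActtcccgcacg

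Chac1, chr2:119351038-119351067, minus strand: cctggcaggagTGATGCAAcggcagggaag

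Trib3, chr2:152344075-152344104, minus strand: cgggtcacagaTGGTGCAAtcccgggccgc

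Trib3, chr2:152344028-152344057, plus strand: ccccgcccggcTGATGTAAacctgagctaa

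Psat1, chr19:15925177-15925206, minus strand: acgcgggtggcTGGTGCAAtcccctgctct

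The strict form was found in 3 of the 12 windows of the 10 genes (Asns, Chac1 and Trib3) and in 3.97% of all 32851 promoter windows. Either form was found in 6 of the 12 windows, which adds Atf5, Psat1 and Sesn2, and in 14.2% of all windows. The motifs were chosen after the windows were seen, so these shares are descriptions and no test. Counted from the RefSeq start, the printed matches lie at -23 to -16 in Asns, -193 to -186 in Chac1, -33 to -26 and 15 to 22 in Trib3, and -136 to -129 in Psat1. These starts are not the ends of the GENCODE gene models given above: the RefSeq start lies 45 bases downstream of the GENCODE start in Asns and 13 in Chac1, and 28 bases upstream of it in Trib3. The Psat1 start used here is 1 of 2 in RefSeq and lies 22278 bases inside the GENCODE model. Genes with a match in the window had log2 differences from 0.02 (Sesn2) to 0.14 (Trib3), and the 4 genes without one, Atf4, Ddit3, Ddit4 and Phgdh, had differences from -0.02 (Ddit4) to 0.16 (Phgdh). A match is a description of the sequence only, and no binding was measured.

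The wider pathway was followed in 8 lists of 91 genes, 87 of them tested. By limma 0 of the 87 genes reached an adjusted p-value below 0.05. By the unadjusted criterion 17 were higher and 3 lower, where 12.0% and 3.65% of all tested genes were, and after rescaling the numbers were 5 and 5, against 3.31% and 7.79%. The log2 difference was above 0 for 72 of the 87 genes, beside 63.7% of all tested genes, and for 41 after rescaling, beside 39.4%.

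The sensors of the response showed no difference past the test. PERK (Eif2ak3), which senses misfolded protein in the endoplasmic reticulum, had 24.2 ± 0.686 TPM in control and 24.5 ± 0.755 TPM in exposed dishes (SD, n = 4), and GCN2 (Eif2ak4), which senses uncharged tRNA, 9.29 ± 0.092 and 9.69 ± 0.694 TPM. HRI (Eif2ak1), which relays mitochondrial stress, had 23.7 ± 0.504 and 24.7 ± 1.11 TPM, and PKR (Eif2ak2), which senses double-stranded RNA, 21.9 ± 0.729 and 23.95 ± 1.95 TPM. The log2 differences of these 4 kinases were 0.02, 0.05, 0.05 and 0.12 in this order, with adjusted p-values of 0.364 or more by limma. Dele1, whose product carries the mitochondrial signal to HRI, had 39.7 ± 2.39 TPM in control and 34.9 ± 2.29 TPM in exposed dishes, a log2 difference of -0.18 (standard error 0.06, adjusted p = 0.175, limma), and the dishes overlapped. Its protease Oma1 had a log2 difference of 0.0034. Of the 8 genes of this list, 0 were higher and 1 (Dele1) lower with an unadjusted p-value under 0.05, beside 12.0% and 3.65% of all tested genes. The median was 0.02. After rescaling the list still had 0 higher and 1 lower, beside 3.31% and 7.79%, and the median was -0.02.

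Among eIF2, its exchange factor eIF2B and the eIF2 phosphatases, all 10 genes had positive differences (63.7% of all tested genes did) with a median of 0.08. Of these, 6 were higher with an unadjusted p-value under 0.05, as were 12.0% of all tested genes. After rescaling 8 were positive (39.4% of all tested genes were), Eif2b4 and Ppp1r15b being negative, and the median was 0.03. Ppp1r15a encodes GADD34, the inducible phosphatase subunit that ends the response. Its TPM was 15.3, 16.2, 15.1 and 16.3 in control dishes and 17.4, 17.4, 17.7 and 18.8 in exposed dishes, so that all exposed dishes were above all control dishes. Exposed minus control, the log2 difference was 0.17 (standard error 0.04, adjusted p = 0.139, limma) and 0.13 after rescaling. Ppp1r15a was then the 1 gene of the list with an unadjusted p-value under 0.05, where 3.31% of all tested genes were higher. Eif2s3x and Eif2s2, subunits of eIF2, had log2 differences of 0.08 and 0.07 (adjusted p = 0.188 and 0.221, limma), and after rescaling of 0.03 and 0.03.

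Serine, glycine, folate and other amino acid synthesis outside the 10 genes comprised 14 genes, of which 13 were tested. Here 5 genes were higher with an unadjusted p-value under 0.05 and 0 lower, beside 12.0% and 3.65% of all tested genes. The median log2 difference was 0.07. After rescaling 4 were higher and 1 lower, beside 3.31% and 7.79% of all tested genes, with a median of 0.02. Shmt1, the cytosolic enzyme that turns serine into glycine, had 85.0, 81.0, 80.0 and 82.8 TPM in control dishes and 96.0, 97.0, 91.9 and 90.4 TPM in exposed dishes. The groups did not overlap, with a log2 difference of 0.19 (standard error 0.03, adjusted p = 0.122, limma) that was 0.14 after rescaling. Pycr1, which completes proline synthesis, and Cth, which makes cysteine, had log2 differences of 0.18 (adjusted p = 0.132, limma) and 0.15 (adjusted p = 0.139, limma). Psph, the last enzyme of the serine pathway after Phgdh and Psat1, had a log2 difference of -0.04 (adjusted p = 0.583, limma), which was -0.09 after rescaling, where it was the 1 lower gene of the list.

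Of 8 tested amino acid transporters 1 was higher with an unadjusted p-value under 0.05 (12.0% of all tested genes were), and the median was 0.04. It was Slc3a2, the heavy chain shared by several transporters, with 409 ± 4.68 TPM in control and 430.4 ± 3.61 TPM in exposed dishes (SD, n = 4; log2 difference 0.07, adjusted p = 0.142, limma). After rescaling its difference was 0.03 and the median was 0.0015. Then 0 of the 8 had an unadjusted p-value under 0.05, beside 3.31% of all tested genes higher and 7.79% lower. Slc7a5 and Slc38a2 had log2 differences of 0.06 and 0.04 (adjusted p = 0.508 and 0.649, limma). The 13 genes of aminoacyl-tRNA synthetases and the tRNA exporter Xpot all had positive differences (63.7% of all tested genes did) with a median of 0.06. Of these, 4 were higher with an unadjusted p-value under 0.05, as were 12.0% of all tested genes. Eprs (0.09), Gars (0.07) and Sars (0.08) had the smallest p-values (adjusted p = 0.14, 0.238 and 0.248, limma). After rescaling 10 of the 13 were positive (39.4% of all tested genes were), with Aars, Iars and Yars negative, and the median was 0.02. Of the 13, 0 then had an unadjusted p-value under 0.05, beside the same 3.31% and 7.79% of all tested genes.

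Among the bZIP partners of ATF4 and related factors, 0 of 8 genes had an unadjusted p-value under 0.05, beside 15.6% of all tested genes. The median log2 difference was -0.00021. After rescaling 1 gene, Cebpa, was lower by this criterion (-0.23), beside 7.79% of all tested genes, and the median was -0.04. Atf3, a target that is usually induced early, had 9.77 ± 0.172 TPM in control and 9.79 ± 1.07 TPM in exposed dishes (SD, n = 4; log2 difference -0.0028). Cebpa, Nfe2l2 and Cebpb had the smallest p-values of the list, with log2 differences of -0.19, 0.03 and -0.23 (adjusted p = 0.371, 0.539 and 0.570, limma). Cebpb varied widely between control dishes, from 27.1 to 50.5 TPM, against 27.4 to 34.1 TPM in exposed dishes. Of 13 other tested ATF4 targets 1 was higher and 1 lower with an unadjusted p-value under 0.05, beside 12.0% and 3.65% of all tested genes. The median was 0.01. The higher gene was Sqstm1, which encodes the autophagy receptor p62 (log2 difference 0.07, adjusted p = 0.261, limma), and the lower was the growth factor gene Vegfa (-0.18, adjusted p = 0.194, limma), while Eif4ebp1, a repressor of translation, had 0.06 (adjusted p = 0.473, limma). After rescaling Sqstm1 (0.02) was no longer under 0.05 unadjusted, Vegfa (-0.22) was, and the median was -0.04. This made 0 of the 13 higher and 1 lower, beside 3.31% and 7.79% of all tested genes. Gdf15, a hormone released under mitochondrial stress, had 6.44 ± 0.72 TPM in control and 6.57 ± 0.546 TPM in exposed dishes, and Fgf21 had at most 0.06 TPM in any dish and was not tested.

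The ATF6 and XBP1 branch of the unfolded protein response, which acts beside PERK in the endoplasmic reticulum, had a median of 0.02 over 14 genes. At an unadjusted p-value under 0.05, 0 were higher and 1 lower, beside 12.0% and 3.65% of all tested genes. The lower gene was Xbp1, a transcription factor of this branch, with 128, 128, 129 and 126 TPM in control dishes and 117, 122, 118 and 123 TPM in exposed dishes. All exposed dishes were below all control dishes, with a log2 difference of -0.09 (standard error 0.03, adjusted p = 0.168, limma) and -0.14 after rescaling. Xbp1 was then the 1 lower gene of the 14 under 0.05 unadjusted and 0 were higher, beside 7.79% and 3.31% of all tested genes. The median of the list after rescaling was -0.03. The chaperone genes Pdia4 and Hyou1 came next, at 0.07 and 0.05 (adjusted p = 0.366 and 0.440, limma).

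**Figure D4:**
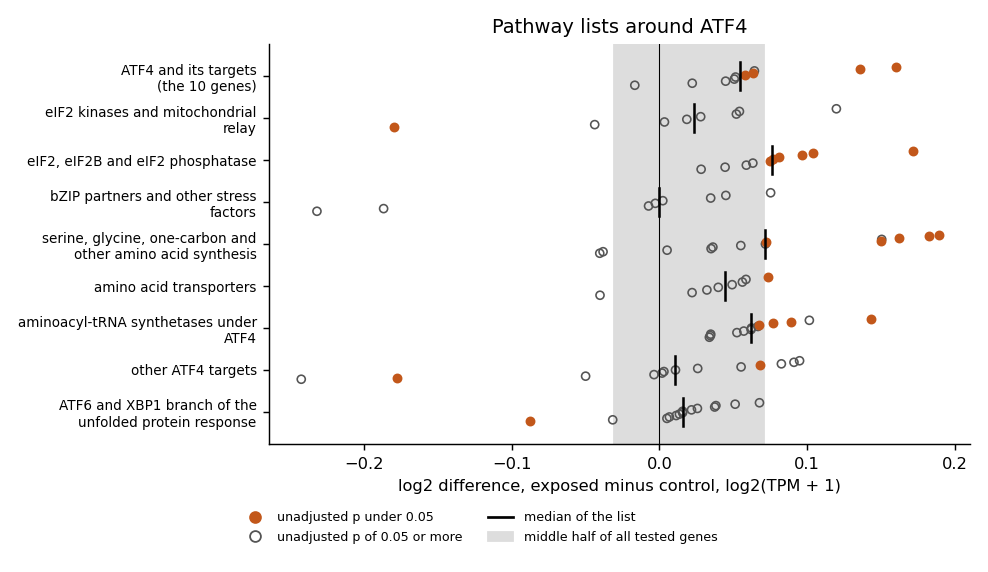
Log2 difference on log2(TPM + 1) between Opti-ELF-WMF and control dishes (n = 4 each) for the 10 genes and for each tested gene of the 8 pathway lists, with filled orange points for an unadjusted limma p-value under 0.05, open circles for the others, a black bar for the median of each list and a grey band for the middle 50% of all tested genes (-0.03 to 0.07). The medians run from -0.00021 for the bZIP list to 0.08 for the eIF2 list. The band is the spread of single genes and is no measure for the median of a list.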

How the data were processed

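RNA of 4 control and 4 exposed dishes was sequenced by the authors from stranded mRNA libraries. Per the file headers the deposited values are TPM, and the submitters' processing notes name Trimmomatic 0.39, STAR 2.7.4a, RSEM 1.3.3 and build mm10, while the annotation is not given in the sources used here. Groups and replicate numbers came from the sample labels. Replicates are dishes, so p-values measure the spread between dishes. Whether all replicates came from the same batch of cells is not given.

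The 12122 genes that reached TPM 1 in 4 or more dishes were tested with limma 3.58.1 in R 4.3.3 (lmFit, eBayes with a trend) on log2(TPM + 1), which understates changes of low genes, with Benjamini-Hochberg adjustment. The pipeline was tested on simulated data. TPM was rescaled without 37 mitochondrial genes and 7 nuclear copies (at least 50% of 31-base words shared). Positions are those of GENCODE M21 (GRCm38), which matched 55141 identifiers. Exact permutation tests used SciPy 1.17.1.

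The 10 genes, the lists and the markers were chosen with earlier results of these data known, and the promoter motifs after the windows were seen. Named from each list were the 3 genes with the smallest p-value, the eIF2 kinases, Ppp1r15a and Atf3, and for Atf4 the 3 genes with the highest r. Named beyond this rule, after their values were seen, were Psph, Oma1, Gdf15, Fgf21, Xpot, Eif2b4, Ppp1r15b, Aars, Iars, Yars and genes that overlap or resemble a member. Alternatives covered the pseudocount, filter, scaling, variance model, replicate block and each dish left out.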

Additional observations from a re-analysis of the deposited data

Results flagged for a closer look

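In 8 of 194 groups of 4 dishes, drawn from the 10 genes and the tested pathway genes, 1 dish was farther from its neighbors than Dixon's 95% critical value allows, and chance alone would give about 1 in 20 groups, or 9.7. Among the 10 genes this was Phgdh in control replicate 2, at 369.42 TPM against 403 to 410 TPM in the other control dishes. Without that dish the log2 difference of Phgdh was 0.13 in place of 0.16.

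Among the pathway genes, control replicate 1 was low for Cebpg (38.04 TPM against 45.4 to 46.6) and Aldh18a1 (47.2 TPM against 51.0 to 51.7), control replicate 2 was high for Vldlr (39.57 TPM against 36.7 to 37.0), and control replicate 3 was low for Pycr1 (13.39 TPM against 14.03 to 14.14). Opti-ELF-WMF replicate 1 was low for Eif2ak2 (21.04 TPM against 24.8 to 25.2) and Yars (39.14 TPM against 41.3 to 41.7), and Opti-ELF-WMF replicate 3 was high for Ppp1r15b (57.63 TPM against 55.6 to 55.7). No explanation was tested.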

How the results depend on the processing

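Under every alternative limma fit, 0 of the 10 genes were past the adjusted threshold. Over all genes, 0 passed on the deposited values, and 1 did with a TPM of at least 1 in every sample, with median-of-ratios scaling, with rescaling without mitochondrial genes and nuclear copies, and without the mean-variance trend. The 4 of the 10 genes that were higher with an unadjusted p-value under 0.05 became 2 with median-of-ratios scaling and 1 with rescaling. Of all tested genes 12.0% were higher on the deposited values, 5.55% with median-of-ratios scaling and 3.31% with rescaling. The 4 genes became 2 without the trend and 5, Asns added, with all genes of TPM above 0 in any sample. In these 2 fits 1723 and 2565 of all genes were under 0.05 in either direction. The share of higher genes was not taken for them. The median log2 difference of the 10 genes, 0.055, became 0.026 with median-of-ratios scaling and 0.0073 with rescaling. Sesn2 reversed under the same scalings (-0.0059 and -0.024), and Ddit4 without control replicate 4 (0.018, against values down to -0.049 with other dishes left out). These scalings multiply all genes of a dish by 1 factor, and the median log2 difference over all tested genes moved alike, from 0.026 to -0.0013 and -0.018. With each dish left out in turn, from 0 to 2 genes passed over all genes (2 without control replicate 2, 1 without control replicate 3), from 1496 to 1963 had an unadjusted p-value under 0.05, 3 to 4 of the 10 genes were higher by that criterion (3 without control replicate 2 or 3), 0 were lower, and the median ran from 0.045 to 0.066. Same-numbered dishes did not deviate together (r from -0.042 to 0.026) and no dish correlated best with its own number. These correlations cannot show whether same-numbered dishes were handled together. With the replicate block, 0 genes passed, 1889 against 1894 had an unadjusted p-value under 0.05, and 4 of the 10 genes were higher, with no call changed. For single genes, 153 values under the alternatives kept their sign and their side of the threshold and 3 reversed. The other 4 (Atf4, Trib3, Psat1 and Phgdh) were under 0.05 in the exact permutation test (p = 0.0286), which was not adjusted over genes. This test gives that value to any gene whose groups do not overlap. Depth could not be weighed, since TPM keeps none.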
